A study of Mus musculus with 18 samples.

Results

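The 77 genes described here encode the proteins of the mitochondrial ribosome, read as the genes listed under an Mrpl or Mrps symbol with a number, and they were taken from 10597 genes measured in mouse hearts with and without the microprotein mORF4/NBDY. By textbook assignment 26 of the 77 encode proteins of the small subunit and 50 proteins of the large subunit. Mrps18a and Mrps30 are among those 50, since their products sit in the large subunit despite their names. The remaining gene, Mrps36, encodes a protein that is now counted with the alpha-ketoglutarate dehydrogenase complex and not with the ribosome. The hearts were left ventricles of male C57BL/6 mice aged 20 weeks, kept under normal housing with no treatment. Knockout hearts (KO, mORF4-NBDY KO, hearts 6 to 10, n = 5) were set against wild-type hearts (WT, hearts 1 to 4, n = 4), and every heart was read by poly-A RNA sequencing and by ribosome profiling, with 1 library of each kind. The sources used here do not say how the knockout was made or in which cells it acts. The values are read counts that the authors divided by a size factor per library, called normalized reads below, and they are not divided by gene length, so levels are compared between hearts and never between genes.

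The mitochondrial ribosome translates the few proteins that mitochondrial DNA encodes, all of them subunits of the oxidative phosphorylation complexes on which heart muscle depends for ATP. Its own proteins are encoded in the nucleus, made by ribosomes in the cytosol and imported, so a footprint on one of these mRNAs marks a cytosolic ribosome. Some of the proteins have a counterpart in bacterial ribosomes, here 45 of the 76 ribosomal members (29 large, 16 small), and 31 belong to mitochondria alone. The nuclear factors NRF1, GABP (an ETS family factor) and YY1 and the coactivator PGC-1alpha are known regulators of nuclear genes for mitochondrial proteins. NBDY is known to bind the mRNA decapping machinery of P-bodies.

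The targeted gene was low in KO hearts in both assays. Nbdy averaged 73.5 ± 10.7 normalized RNA reads in KO hearts and 110.6 ± 7.10 in WT hearts (SD, n = 5 and 4), and 14.3 ± 3.46 footprint reads in KO hearts against 183 ± 116 in WT hearts. RNA libraries held 15794158 to 20194680 reads over the listed genes in KO hearts and 11172198 to 12363740 in WT hearts, with no overlap, so RNA depth and genotype cannot be told apart. Footprint libraries held 22911504 to 40800937 reads in KO hearts and 6671555 to 36702120 in WT hearts, and WT heart 2 was the shallowest. All 10 markers of heart muscle cells were listed, and their summed RNA ran from 1.73e+06 to 1.98e+06 in KO hearts and from 2.04e+06 to 2.33e+06 in WT hearts, without overlap. Summed RNA of 6 endothelial markers was also lower, at 12807 to 14845 against 14999 to 17039. For the 3 listed atrial markers it was 5257 to 8852 in KO hearts and 15049 to 16771 in WT hearts, most of it Myl4 RNA (3741 ± 614 in KO hearts, 11100 ± 2269 in WT hearts), whereas Myl7 had a log2 fold change of 1.53 and was not called. Single markers of the other lists rose, Myl3 (0.26) of heart muscle and Tie1 (0.34) of endothelium. Summed footprints of these 3 lists overlapped between genotypes, and 0 of their genes were called in footprints (limma). Summed RNA and summed footprints of the lists for fibroblasts, macrophages, smooth muscle, erythrocytes and adipocytes overlapped between genotypes. Single markers of these lists were still called in RNA (limma). Of smooth muscle, Pdgfrb (0.45), Notch3 (0.42) and Cspg4 (0.47) rose and Acta2 (-0.41) fell. Of macrophages, Adgre1 (0.53) and Csf1r (0.25) rose and Cd68 (-1.05) fell. Col1a2 (0.49) of fibroblasts and Hbb-bs (0.53) of erythrocytes rose, and Cidea (-0.40) of adipocytes fell. Normalized RNA summed over all listed genes was itself lower in every KO heart. It ran from 1.40e+07 to 1.47e+07 in KO hearts and from 1.55e+07 to 1.65e+07 in WT hearts. The marker sums were not taken as shares of that total. No listed marker was at 0 in all hearts. The part of these shifts in the results below was not tested, and in whole tissue fewer cells of a type and less RNA per cell cannot be told apart.

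The regulatory sequence nearest to the findings is shown first. Mrps11 and Mrpl46 lie head to head on chromosome 7, on opposite strands, and their RNA moved in opposite directions, so the whole stretch between their starts is given. Mrpl12 had one of the largest RNA decreases and Mrpl52 one of the largest RNA increases, and the 100 bases before each start are shown. All sequences are RefSeq, build GRCm38.p6, plus strand, and capitals mark a match to one of the motifs described next.
Mrps11 and Mrpl46, chr7:78783090-78783130: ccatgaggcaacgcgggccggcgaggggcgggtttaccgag
Mrpl12, chr11:120484537-120484636: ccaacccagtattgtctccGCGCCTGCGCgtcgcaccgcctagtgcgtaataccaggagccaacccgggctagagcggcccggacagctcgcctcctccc
Mrpl52, chr14:54426809-54426908: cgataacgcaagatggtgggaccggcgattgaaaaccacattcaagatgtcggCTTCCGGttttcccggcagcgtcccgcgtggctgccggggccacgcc
The capitals in Mrpl12 match the NRF1 motif and those in Mrpl52 the ETS motif, each on the other strand. None of the motifs was found in the 41 bases between Mrps11 and Mrpl46, although the longer window searched around the Mrps11 start, described next, held a YY1 match.

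The motifs were searched on both strands from 250 bases before to 50 bases after each start, in the 68 members with a RefSeq window. The NRF1 motif was in 13 member windows, or 19.1%, against 11.2% of the 8115 listed genes with a window and 4.78% of all 27025 windows. The ETS motif (CCGGAAG) was in 24 member windows, or 35.3%, against 19.3% of listed genes and 9.12% of all windows. YY1 (ATGGCGGC) was matched in 12 member windows, or 17.6%, against 5.63% of listed genes and 2.38% of all windows. The motifs were found among members whose RNA rose and among members whose RNA fell. NRF1 was found in 5 of 28 that rose and 3 of 16 that fell, ETS in 11 of 28 and 6 of 16, and YY1 in 3 of 28 and 2 of 16. Among the 24 members not called in RNA, 5 held NRF1, 7 ETS and 7 YY1. A match describes letters in this window only.

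RNA of the mitochondrial ribosomal protein genes did not move as a block. Of the 77 members, 30 rose in KO hearts, 18 fell and 29 did not pass the test (limma, adjusted p below 0.05 over all genes). Called members thus made up 62.3%, against 49.4% of all 10580 genes tested, and those that rose 39% against 24.3%. Those that fell made up 23.4%, near the 25.1% of all genes. At an unadjusted p below 0.05 there were 52 of the 77 members, against 55.7% of all genes. The median log2 fold change was 0.13 over the members and 0.012 over all genes. In 28 of the 77 members every KO heart lay above every WT heart, and in 18 of the 77 every KO heart lay below, against 19.8% and 20.6% of all genes. A change of at least 0.5 on the log2 scale was seen in 15 of 77 members, and in 21.2% of all genes.

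The subunits differed in how their calls were divided. In the small subunit 10 members rose and 10 fell of 26 (38.5% each), with a median log2 fold change of 0.06. In the large subunit 20 rose and 7 fell of 50 (40% and 14%), with a median of 0.14. Of all genes 24.3% rose and 25.1% fell. The difference between the subunits was not tested. Members with a bacterial counterpart (19 rose, 10 fell of 45, or 42.2% and 22.2%) had changes in both directions. So did members of mitochondria alone (11 rose, 7 fell of 31, or 35.5% and 22.6%).

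The largest decreases were in Mrps23 and Mrpl12. Mrps23, a small-subunit protein found in mitochondria alone (chromosome 11, 88194106 to 88211507), had 1625, 1888, 1800, 1626 and 1924 normalized RNA reads in KO hearts 6 to 10, against 3253, 3317, 3829 and 3418 in WT hearts 1 to 4. Every KO heart was well below every WT heart, with a log2 fold change of -0.96 (SE 0.07, adjusted p = 1.21e-06 by limma). Mrpl12 is the stalk protein that recruits translation factors and is also known to bind mitochondrial RNA polymerase. It had 2857, 2680, 2781, 2896 and 2949 reads in KO hearts, against 5955, 5477, 4833 and 5065 in WT hearts. The 5 KO values lay close together and far under the WT values, with a log2 fold change of -0.91 (SE 0.06, adjusted p = 8.59e-07 by limma). Mrps23 overlaps the listed gene Cuedc1, and the RNA kit does not mark strand, so reads in the overlap cannot be assigned. Mrpl12 overlaps no gene. In all, 13 members overlap a listed gene, and 7 of these rose and 2 fell (53.8% and 15.4%). Of the 64 members without such an overlap 23 rose and 16 fell (35.9% and 25%), against 24.3% and 25.1% of all genes.

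Mrpl22 and Mrps25 followed. Mrpl22, which lines the tunnel through which the new peptide leaves, had 482, 493, 503, 547 and 539 RNA reads in KO hearts, against 827, 730, 750 and 790 in WT hearts. The genotypes did not overlap, and its log2 fold change was -0.59 (SE 0.06, adjusted p = 1.74e-05 by limma). Mrps25, a small-subunit protein of mitochondria, had 466, 452, 539, 470 and 493 reads in KO hearts, against 753, 660, 736 and 748 in WT hearts. It fell by 0.58 on the log2 scale, also with no overlap, and it overlaps the listed gene Nr2c2.

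Other decreases of the large subunit were in Mrpl42 (log2 fold change -0.54), Mrpl41 (-0.52), Mrpl32 (-0.40) and Mrpl46 (-0.39). Mrpl32 is known for its processing by the m-AAA protease of the inner membrane. Mrpl42 averaged 6948 ± 359 RNA reads in KO hearts and 10070 ± 379 in WT hearts. In the small subunit Mrps18b (-0.43), Mrps5 (-0.38), Mrps15 (-0.30) and Mrps28 (-0.27) fell, the last the counterpart of bacterial S1. Mrps36, not a ribosomal protein, had a log2 fold change of -0.49 and carries 3 pseudogenes named after it in RefSeq. Each of these 9 genes had all KO hearts below all WT hearts.

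Mrps12, the protein of the decoding centre, also fell, but 1 heart decided the size. It had 550, 529, 556, 517 and 262 RNA reads in KO hearts, against 696, 667, 751 and 609 in WT hearts. KO heart 10 stood far under the other KO hearts, and it was lowest in footprints too, with 690, 755, 690, 507 and 264 footprint reads in KO hearts, against 686, 532, 645 and 539 in WT hearts. The RNA log2 fold change was -0.54 (SE 0.19, adjusted p = 0.0357 by limma), and without KO heart 10 it was -0.34 (adjusted p = 0.00333 by limma). The call was lost without WT heart 1, 2 or 3, with quantile normalization and without the trend (adjusted p of 0.0562 to 0.0887 by limma).

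**Figure D1:**
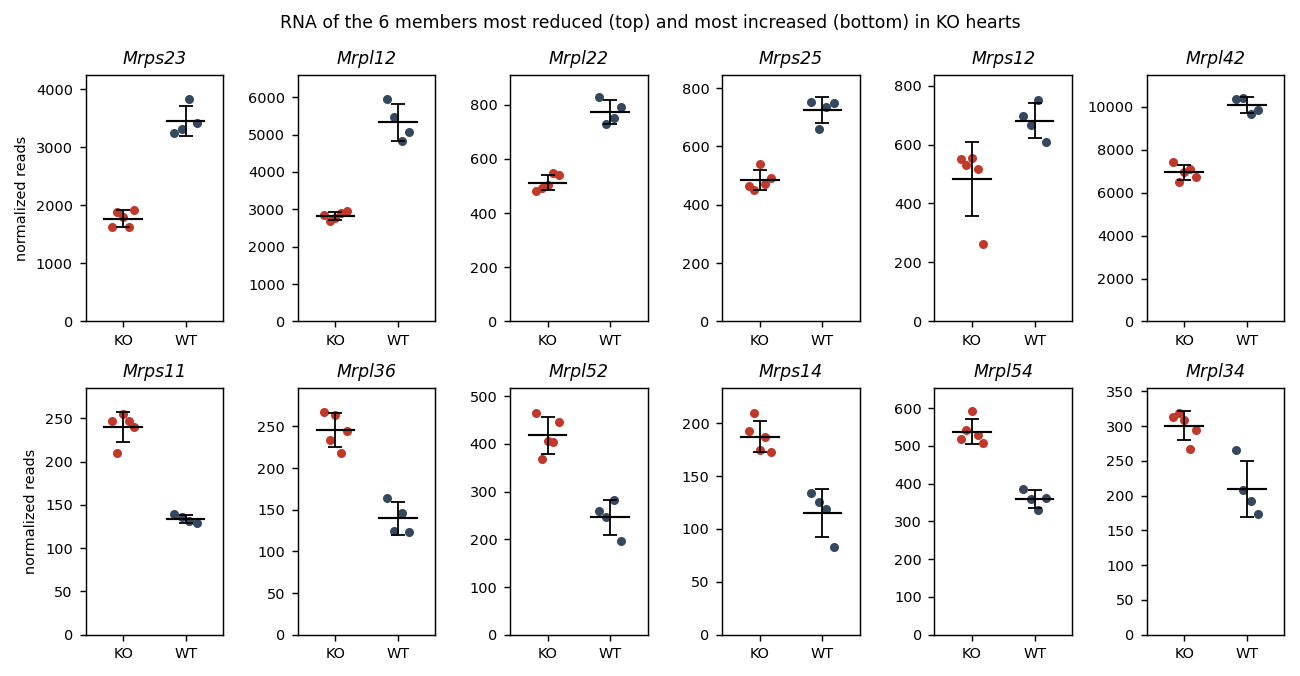
Normalized RNA reads per heart (points, linear axis from 0) of the 6 members with the largest decreases (top) and the 6 with the largest increases (bottom), KO hearts left (n = 5) and WT hearts right (n = 4); lines and bars are mean ± SD. The genotypes overlap in none of the 12 panels, and 1 KO heart of Mrps12 lies at 262, apart from the others.

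The largest increases were in Mrps11, Mrpl36, Mrpl52 and Mrps14. Mrps11, a protein of the small-subunit platform, had 247, 210, 255, 247 and 240 RNA reads in KO hearts, against 139, 136, 132 and 129 in WT hearts. All KO hearts were above all WT hearts, with a log2 fold change of 0.83 (SE 0.08, adjusted p = 1.09e-05 by limma). Mrpl36, a small protein with a bacterial counterpart, had 267, 234, 264, 218 and 245 reads in KO hearts, against 164, 125, 146 and 123 in WT hearts. This gave 0.82 on the log2 scale (SE 0.11, adjusted p = 7.55e-05 by limma). Mrpl52, of the central protuberance, had 466, 368, 406, 405 and 445 reads in KO hearts, against 260, 246, 282 and 196 in WT hearts. The increase was 0.77 on the log2 scale (SE 0.11, adjusted p = 1.29e-04 by limma). Mrps14, of the small-subunit head, had 192, 210, 175, 187 and 173 reads in KO hearts, against 134, 125, 119 and 82.5 in WT hearts. It rose by 0.72 (SE 0.14, adjusted p = 0.00108 by limma), and in each of these 3 genes the genotypes did not overlap.

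Further increases of the large subunit were in Mrpl54 (log2 fold change 0.58), Mrpl34 (0.53), Mrps18a (0.52), Mrpl49 (0.42), Mrpl57 (0.38) and Mrpl18 (0.36). Mrpl54 is a stalk protein, and Mrpl18 belongs to the central protuberance. Mrpl54 averaged 538 ± 33.3 RNA reads in KO hearts and 359 ± 23.1 in WT hearts. In the small subunit Mrps24, the counterpart of bacterial S3 at the mRNA entry, averaged 995 ± 24.6 in KO hearts and 703 ± 49.1 in WT hearts (log2 fold change 0.50). Mrps17 (0.43), Mrps34 (0.36), Mrps16 (0.27) and Mrps7 (0.24) rose as well. Mrps7 overlaps the listed genes Gga3 (-0.43) and Mif4gd (0.34), and Mrpl49 overlaps Syvn1 (-0.39). Without strand, RNA reads in these overlaps cannot be assigned either. Mrps7 and Mrps16 are small-subunit proteins with bacterial counterparts, and Mrps34 is known to stabilize the 12S ribosomal RNA in mice.

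Parts of the ribosome that work together held changes in both directions, as all genes did (24.3% rose and 25.1% fell). Of the 5 stalk members Mrpl11 (0.25), Mrpl53 (0.32) and Mrpl54 (0.58) rose, Mrpl12 (-0.91) fell and Mrpl10 (0.09) did not pass the test. Around the exit tunnel Mrpl45, which anchors the ribosome at the inner membrane, rose with a log2 fold change of 0.20, as did Mrpl17 (0.24) and Mrpl23 (0.23), and Mrpl22 fell. The call of Mrpl17 was lost without WT heart 2 (adjusted p = 0.0516 by limma), and that of Mrpl23 without WT heart 1 or 2 or KO heart 8 or 9 (adjusted p up to 0.0745 by limma). Mrpl24 (log2 fold change 0.13) and Mrpl47 (-0.20), also of the exit tunnel, were not called. In the central protuberance 4 of 8 members rose and Mrpl46 fell, and Mrpl27 was not called (0.10). The 3 paralogs of bacterial S18 were divided as well, with Mrps18a (0.52) and Mrps18c (0.24) higher and Mrps18b (-0.43) lower in KO hearts. The call of Mrps18c was lost without WT heart 3 or 4 or KO heart 9 (adjusted p up to 0.0681 by limma).

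Mrps22 (log2 fold change -0.21), in which human variants cause cardiomyopathy, fell, and Mrps2 (-0.29) fell in the full set but was not called without WT heart 1 or 2 or KO heart 8 (adjusted p up to 0.0682 by limma). Mrpl3 had a log2 fold change of 0.28 and Mrpl44 one of 0.14, both genes of human cardiomyopathy, and neither passed the test. For Mrpl3 the hearts were spread from 1074 to 1626 RNA reads in KO and from 933 to 1477 in WT. Mrpl50 (0.05) and Mrps30 (0.13) were not called.

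The pair Mrps11 and Mrpl46, whose sequence is shown above, has starts 42 bases apart. Mrps11 rose and Mrpl46 fell, each without overlap between genotypes. Mrpl46, of the central protuberance, had 703, 705, 772, 737 and 781 RNA reads in KO hearts, against 1031, 947, 952 and 939 in WT hearts. The log2 fold change of Mrpl46 was -0.39 (SE 0.06, adjusted p = 1.70e-04 by limma). In footprints Mrps11 averaged 568 ± 107 in KO hearts and 532 ± 54.5 in WT hearts, and Mrpl46 averaged 1618 ± 150 and 1879 ± 179 (SD, n = 5 and 4). Neither footprint difference passed the test, and the genotypes overlapped in both. In all, 26 members lie head to head with a gene whose start is within 1000 bases, and 11 of these rose and 6 fell (42.3% and 23.1%, against 39% and 23.4% of all members and 24.3% and 25.1% of all genes). Mrpl32 (log2 fold change -0.40) and its neighbour Psma2 (0.19), a proteasome subunit, also went in opposite directions. So did Mrps12 (-0.54) and Sars2 (0.24), the mitochondrial seryl-tRNA synthetase, whereas Mrpl18 (0.36) and Tcp1 (0.19) both rose. Mrpl18 and Tcp1 overlap, and without strand their reads in the overlap cannot be told apart. These pairs were picked after their values were seen.

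**Figure D2:**
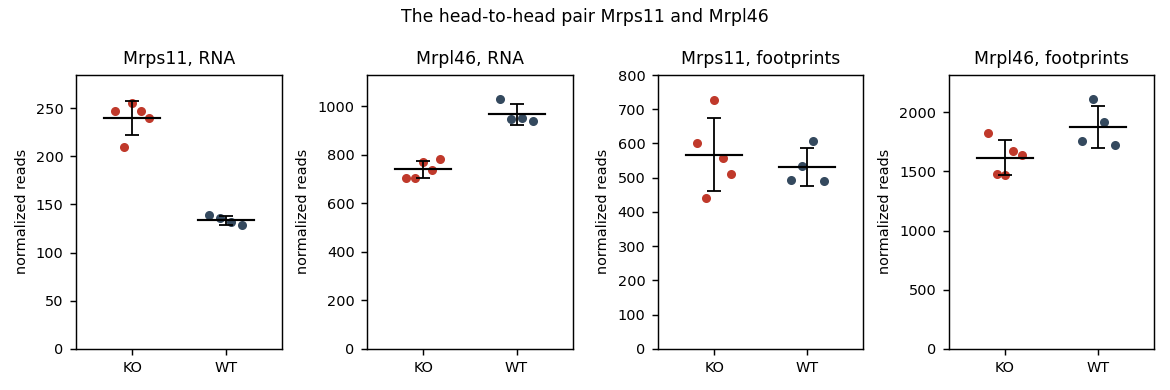
Normalized reads per heart (points, linear axes from 0) of the head-to-head genes Mrps11 and Mrpl46 in RNA (left panels) and footprints (right panels), KO hearts left (n = 5) and WT hearts right (n = 4) in each; lines and bars are mean ± SD. RNA is higher in KO hearts for Mrps11 and lower for Mrpl46, and footprints overlap for both.

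Footprints showed no called member. Of the 75 members with enough footprints to test, 0 were called by limma, and edgeR and DESeq2 on whole reads called 0 as well, as did the authors' deposited table. The background was 0.02%, or 2 of 9976 genes. At an unadjusted p below 0.05 there were 4 of the 75 members, against 5.06% of all genes. Log2 fold changes ran from -0.40 to 0.38 with a median of -0.042, against -0.0027 over all genes. Every KO heart lay below every WT heart in 3 of all 77 members and above in 0, against 0.832% and 0.772% of all genes. The SD of the log2 fold change over 75 members was 0.155 in footprints and 0.366 in RNA, against 0.356 and 0.419 over 9974 genes tested in both. No member reached 0.5 either way, while 9.1% of all genes did. All genes here include genes down to the minimum mean of 10 footprint reads. Among the tested members Mrps10 had the fewest, on average 202 reads in KO hearts and 178 in WT hearts. The spreads were not compared at matched footprint levels, so whether the narrow range is particular to the members was not tested.

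The 4 members at an unadjusted p below 0.05 were Mrpl52, Mrps21 and Mrpl13, with the lowest footprint log2 fold changes (-0.40, -0.39 and -0.36), and Mrpl51, with the highest (0.38). Mrpl52 had 852, 849, 1047, 883 and 872 footprint reads in KO hearts, against 1048, 1508, 1079 and 1155 in WT hearts. The highest KO heart lay just under the lowest WT heart, and the adjusted p was 0.851 (limma). Mrps21 was also below WT in every KO heart, and Mrpl13 and Mrpl51 overlapped. At the same ends of the range stood Mrpl54 (-0.28), Mrpl11 (-0.27) and Mrps24 (-0.26), and on the other side Mrpl21 (0.26), Mrpl22 (0.23), Mrps15 (0.17), Mrps22 (0.14) and Mrps2 (0.13). None of these 8 passed the test.

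The members with the largest RNA changes had footprint differences nearer to 0, and they were picked by those RNA changes. Over 9974 genes the RNA and footprint log2 fold changes had a Pearson r of 0.0689, and over 75 members one of -0.145. Of all genes, 49.4% were called in RNA and 0.02% in footprints, so this contrast is not particular to the members. Mrps23 had 4081, 4960, 4245, 4939 and 5216 footprint reads in KO hearts, against 5224, 5677, 5014 and 4567 in WT hearts. The groups overlapped, and the log2 fold change was -0.13, with a 95% interval of -0.37 to 0.11 that does not reach its RNA change of -0.96. Mrpl12 had 2746, 2771, 2779, 2308 and 2420 reads in KO hearts, against 2712, 3472, 2823 and 2588 in WT hearts. Its interval ran from -0.40 to 0.11 around -0.15. For Mrps11 the interval was -0.28 to 0.44 around 0.08, and for Mrpl36 it was -0.33 to 0.26 around -0.03. Signs in RNA and footprints were opposite, among others, for Mrpl52 (0.77 and -0.40) and Mrpl22 (-0.59 and 0.23). Mrps14 had 2535, 2823, 2065, 2292 and 2430 reads in KO hearts, against 2659, 3876, 2308 and 2348 in WT hearts, with WT heart 2 the highest. Its footprint log2 fold change was -0.18.

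The same was seen over the called members as groups. The 29 members that rose in RNA and had a footprint test had a median log2 fold change of 0.32 in RNA and -0.12 in footprints. The 17 that fell had -0.40 in RNA and -0.06 in footprints. The RNA values chose these groups and are given as a description. Summed over the 30 members that rose, RNA was 18143 to 18987 normalized reads in KO hearts and 14325 to 15355 in WT hearts, and footprints were 35607 to 37172 and 36852 to 44657. Summed over the 18 that fell, RNA was 23190 to 24588 in KO hearts and 34182 to 36687 in WT hearts, and footprints were 24450 to 26348 and 24561 to 30054. Footprint sums overlapped between genotypes in both groups. Over all 77 members RNA summed to 65809 to 68895 in KO hearts and 72730 to 77054 in WT hearts, and footprints to 112676 to 116042 in KO hearts and 115120 to 127341 in WT hearts. In these sums the members with most reads weigh most. Their share of all reads was 0.471% ± 0.00339 in KO hearts and 0.469% ± 0.0216 in WT hearts for RNA, and 0.507% ± 0.0139 and 0.531% ± 0.0174 for footprints (SD, n = 5 and 4).

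Mrpl23 and Mrps36 had RNA but almost no footprints, and they are the 2 members without a footprint test. Mrpl23 had 688, 768, 880, 796 and 704 RNA reads in KO hearts, against 633, 614, 670 and 689 in WT hearts. In footprints it was listed at 0 in 3 KO hearts and 2 WT hearts, with 0.869 and 14.1 reads in the other KO hearts and 9.09 and 5.30 in the other WT hearts. Mrps36 had 1101 ± 62.2 RNA reads in KO hearts and 1549 ± 158 in WT hearts, and at most 25.0 footprint reads in any heart. RefSeq names a pseudogene for Mrpl23 and 3 for Mrps36, and whether reads are shared with these copies was not tested. Mrpl27 and Mrpl48, which also have a pseudogene named after them, kept 377 ± 57.6 and 408 ± 57.3 footprint reads in KO hearts, and 425 ± 77.1 and 482 ± 105 in WT hearts.

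**Figure D3:**
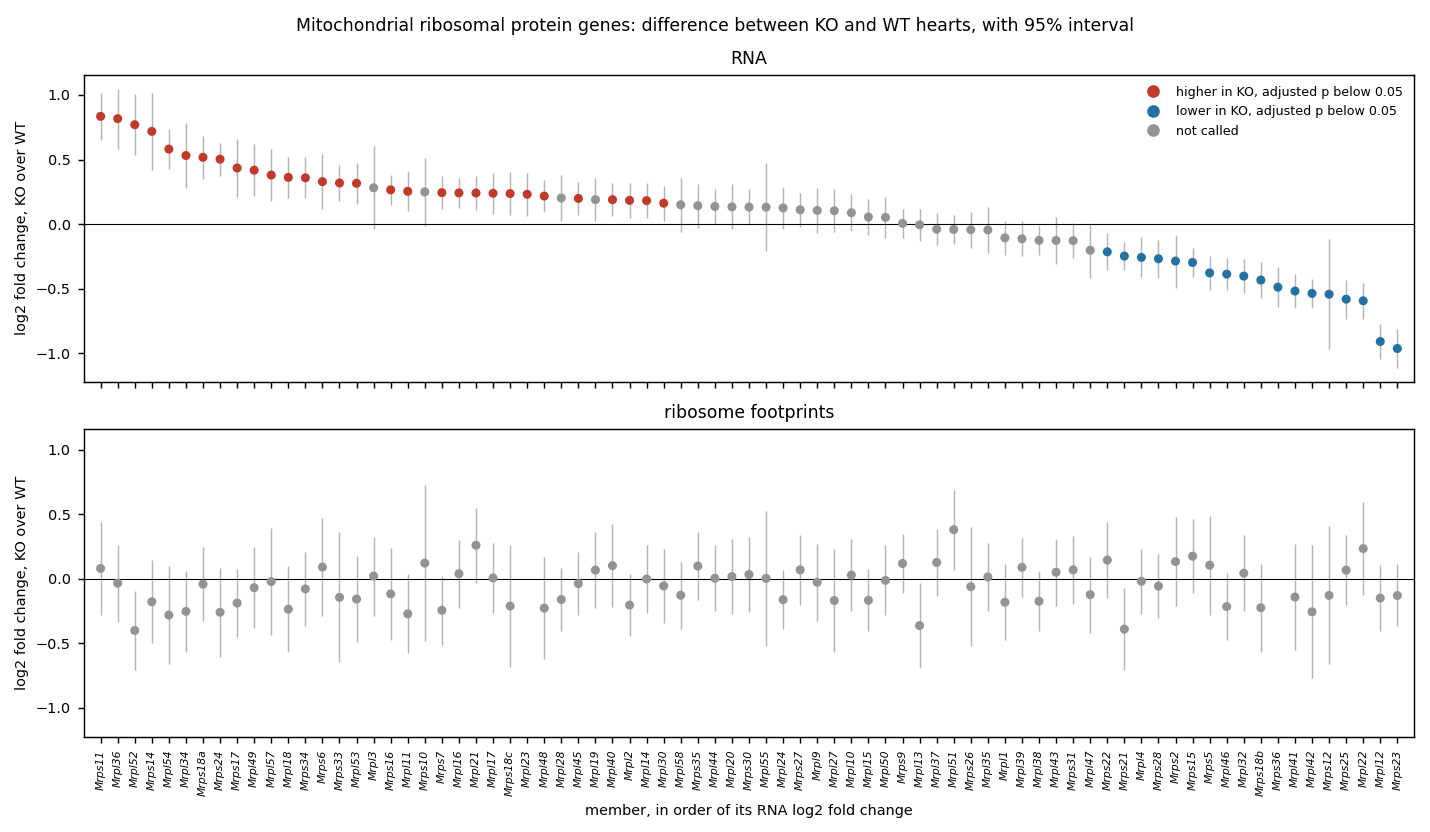
Log2 fold change of KO over WT with its 95% interval (vertical lines) for every member in RNA (top) and footprints (bottom), with members in the order of their RNA value; colour marks the call. RNA spans -0.96 to 0.83 with 30 members higher and 18 lower, and no footprint value is called.

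Translational efficiency, footprints relative to RNA of the same gene, was tested as the difference between the genotype effects of the 2 assays in 1 model. It uses the same RNA libraries as the RNA test, so the results are given side by side and are not separate evidence. Of 75 members tested, 6 rose in KO hearts and 14 fell, or 26.7% called, against 14.4% of 9974 genes. Higher calls made up 8% of the members and 7.83% of all genes, and lower calls 18.7% and 6.55%. By size the members did not stand out. A difference of at least 0.5 on the log2 scale was seen in 15 of 75 members, and in 28.6% of all genes. The median absolute log2 difference was 0.278 over the members and 0.31 over all genes. Shares of calls were not compared at matched read levels. Every KO heart lay above every WT heart in 8 of all 77 members and below in 17 of the 77, against 9.55% and 8.73% of all genes. All 20 members called in efficiency were also called in RNA, and all 20 in the opposite direction, while 0 members were called in footprints. The RNA depth difference between genotypes enters these ratios too.

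The 6 members with higher efficiency were Mrps23 (0.83), Mrpl22 (0.83), Mrpl12 (0.76), Mrps25 (0.65), Mrps15 (0.47) and Mrpl32 (0.45), as log2 differences. Mrps23 had footprint to RNA ratios of 2.51, 2.63, 2.36, 3.04 and 2.71 in KO hearts, against 1.61, 1.71, 1.31 and 1.34 in WT hearts. The genotypes did not overlap (limma, adjusted p = 2.61e-04). Mrpl12 had ratios of 0.961, 1.03, 0.999, 0.797 and 0.821 in KO hearts, against 0.455, 0.634, 0.584 and 0.511 in WT hearts. It too showed no overlap (limma, adjusted p = 5.54e-04). Mrpl22 averaged 1.51 ± 0.328 in KO hearts and 0.838 ± 0.104 in WT hearts, and Mrps25 1.99 ± 0.103 and 1.27 ± 0.0578. RNA log2 fold changes of these 6 were -0.96, -0.59, -0.91, -0.58, -0.30 and -0.40 in the same order. The call of Mrps15 was lost with quantile normalization and without WT heart 3 or 4 (adjusted p up to 0.0702 by limma). That of Mrpl32 was lost with quantile normalization and without WT heart 1, 3 or 4 or KO heart 6, 7 or 10 (adjusted p up to 0.116 by limma).

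The largest decrease in efficiency was in Mrpl52, with ratios of 1.83, 2.30, 2.58, 2.18 and 1.96 in KO hearts, against 4.03, 6.13, 3.82 and 5.89 in WT hearts. Every KO heart was below every WT heart, and the log2 difference was -1.17 (SE 0.18, adjusted p = 2.32e-04 by limma). Mrps14 had ratios of 13.2, 13.5, 11.8, 12.3 and 14.1 in KO hearts, against 19.9, 31.0, 19.4 and 28.5 in WT hearts. Its log2 difference was -0.90 (SE 0.22, adjusted p = 0.00878 by limma), with WT hearts 2 and 4 highest. Mrpl54 (-0.86), Mrpl36 (-0.85), Mrpl34 (-0.78), Mrps24 (-0.76), Mrps11 (-0.75), Mrps17 (-0.62) and Mrps7 (-0.49) fell as well, and these 9 calls held under every alternative run. The other 5 calls were lost in fits that left out 1 heart. For Mrpl18 (-0.60) these were without WT heart 1 or 2 or KO heart 8 or 9 (adjusted p up to 0.0597 by limma), and for Mrps18a (-0.56) without WT heart 1 or 3 (up to 0.0562). For Mrpl11 (-0.53) they were without WT heart 2 or 4 or KO heart 6, 7 or 8 (up to 0.0768), and for Mrpl2 (-0.39) without WT heart 2, 3 or 4 or KO heart 8 or 9 (up to 0.0994). Mrpl49 (-0.49) was called in the full set (adjusted p = 0.0459 by limma) but not without WT heart 1, 2 or 4 or KO heart 6, 7, 9 or 10 (up to 0.138), nor with a pseudocount of 10 (0.0524) or quantile normalization (0.0526).

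With the heart as a replicate block in the efficiency model, Mrpl49 was not called either (adjusted p = 0.0665 by limma). The block added calls for Mrps5 (0.48, adjusted p = 0.0474), Mrpl51 (0.42, adjusted p = 0.0462) and Mrps34 (-0.44, adjusted p = 0.0385), each by limma. Mrpl28, named after its value was seen, was the remaining addition.

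**Figure D4:**
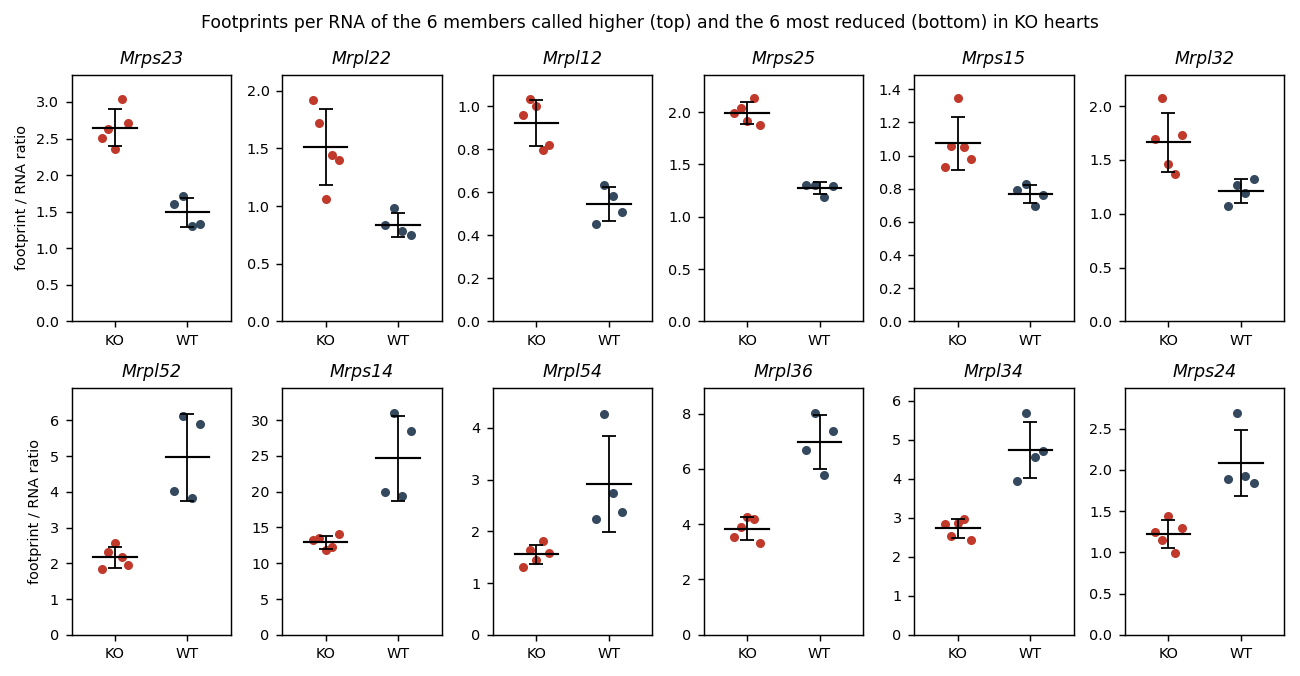
Ratio of footprint to RNA reads per heart (points, linear axes from 0) of the 6 members called higher (top) and the 6 with the largest decreases (bottom), KO hearts left (n = 5) and WT hearts right (n = 4); lines and bars are mean ± SD. The genotypes overlap in none of the 12 panels.

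Other genes of mitochondrial translation are given by list, beside 24.3% of all genes that rose in RNA and 25.1% that fell. No test of a list was run. Of 12 translation factors 8 fell and 1 rose, with a median log2 fold change of -0.28 against 0.012 over all genes. The ribosome recycling factor Mrrf (-0.60), the elongation factor Gfm1 (-0.46) and the initiation factor Mtif3 (-0.41) had the largest decreases, and the elongation factor Tsfm (0.51) rose. Gfm1 averaged 4676 ± 249 RNA reads in KO hearts and 6434 ± 127 in WT hearts. Of 22 genes of ribosome assembly and rRNA modification 11 rose and 5 fell, with a median of 0.27. Here the rRNA methyltransferases Mrm1 (1.46) and Mrm2 (0.88) and the assembly protein Mpv17l2 (1.22) rose most, and the rRNA methyltransferase Tfb1m (-0.69), Mterf3 (-0.46) and the GTPase Gtpbp10 (-0.43) fell most. Mrm1 averaged 79.1 ± 2.98 reads in KO hearts and 28.1 ± 2.22 in WT hearts.

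Among 16 mitochondrial aminoacyl-tRNA synthetases 6 rose, led by Yars2 (0.63), Cars2 (0.62) and Ears2 (0.49), and 2 fell, Wars2 (-0.71) and Fars2 (-0.26). Of 8 genes of mRNA stability and membrane insertion 4 rose, among them the insertases Cox18 (0.41) and Oxa1l (0.41) and the RNA-binding protein Slirp (0.23), and the exoribonuclease Pnpt1 (-0.42) fell. Of 5 mitoribosomal proteins named otherwise Dap3 (0.63) rose and Ptcd3 (-0.36) fell, both of the small subunit. Of 12 regulators of mitochondrial transcription and biogenesis 4 fell and 2 rose. Gabpa (-0.79) and Gabpb1 (-0.38), the subunits of GABP, and Ppargc1a (-0.70), which encodes PGC-1alpha, fell most, and Esrra (0.38) and Polrmt (0.22), the mitochondrial RNA polymerase, rose. Ppargc1a averaged 1670 ± 134 RNA reads in KO hearts and 2715 ± 78.4 in WT hearts. Yy1 (-0.26) fell too, with overlap between genotypes, and Nrf1 (0.0011) was not called. In footprints 0 genes were called in any of these 6 lists (limma), as over nearly all genes. In efficiency the translation factors Mtif3 (log2 difference 0.78), Gfm1 (0.57) and Mrrf (0.48) rose and Tsfm (-0.43) fell. Of the assembly list Tfb1m (0.86) rose, and Mpv17l2 (-1.27), Mrm2 (-1.14) and Mtg2 (-0.58) fell. Gabpa (0.90) and Ppargc1a (0.80) rose in efficiency and Esrra (-0.43) fell, and Dap3 (-0.57), Cars2 (-0.66), Yars2 (-0.59) and Slirp (-0.66) were lower. These ratios use the RNA libraries again.

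**Figure D5:**
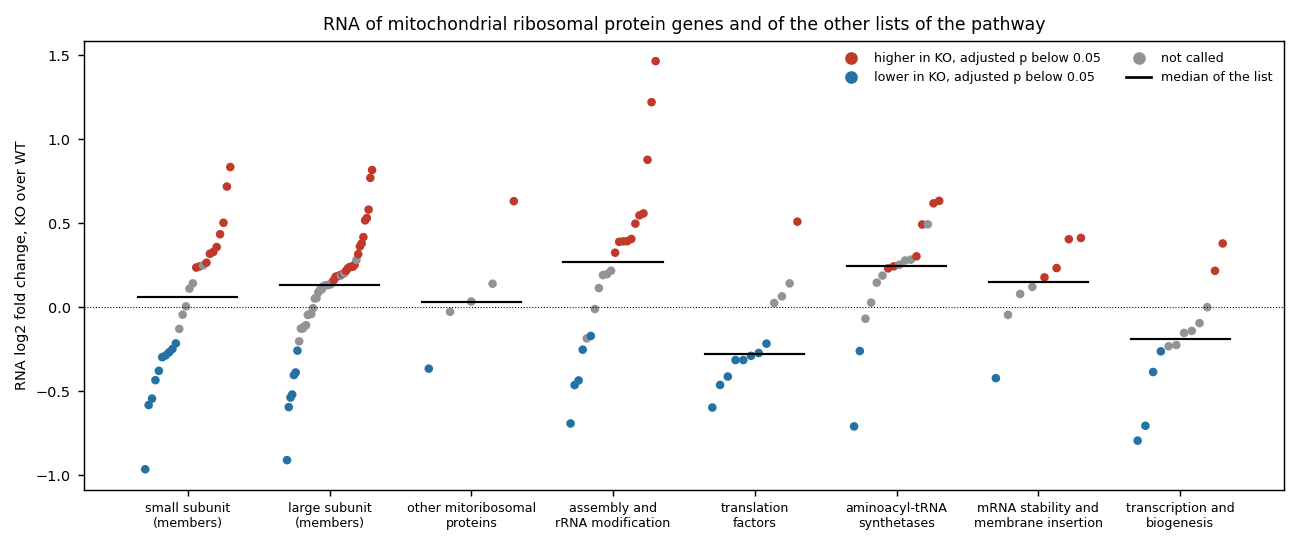
RNA log2 fold change of KO over WT (vertical axis) for members of the small and large subunit and for genes of the 6 other lists of mitochondrial translation; each point is a gene, colour marks the call and black lines are medians. The median is -0.28 for translation factors and 0.27 for assembly and rRNA modification.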

How the data were processed

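Members and gene lists were chosen with earlier results of these data known. The hearts were taken up in TRIzol, per the labels' protocols, and the kits were TruSeq RNA v2 for RNA (no strand information) and NEXTflex Small RNA v3 for footprints. The build was GRCm38 (mm10) and the tools named were HTSeq, DESeq2 and STAR 2.7.1a, per the submitters' processing notes. The deposited RNA and footprint tables hold a normalized signal per library, that is, gene counts that the authors divided by 1 size factor (the headers name it normalized, and its steps give whole reads). The authors' deposited efficiency ratio is footprint over RNA signal of a heart. Deposited log2 fold changes and p-values were used only as an alternative, with the deposited efficiency fold change turned to KO over WT.

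Whole reads were recovered for 100% of values (tolerance 0.01). Libraries of a group all differed by more than sampling noise (lowest chi-square over its degrees of freedom 6.05). Symbols were matched for 10560 of 10597 IDs. Positions of all 77 members and promoters of 68 are from RefSeq. Mrpl33 was not analysed here.

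Values were tested as log2(value + 1) with limma 3.58.1 (R 4.3.3, mean-variance trend) at a minimum mean of 10, over all genes, with Benjamini-Hochberg adjustment. The log2(value + 1) scale understates changes of low genes. Efficiency was the genotype by assay interaction over 18 libraries. Intervals are 95% limma intervals. The fits were tested on simulated data. edgeR 4.0.16 and DESeq2 1.42.0 on footprint reads were alternatives, with another pseudocount (10), minimum mean (0, 50), scaling, no trend, each heart left out and the heart as block. RNA and footprints of a number come from 1 heart per the labels. As a check, their deviations from the genotype mean correlated at 0.208 to 0.502 over 8066 genes within a heart, against a median of -0.136 between hearts, and 8 of 9 hearts correlated best with themselves.

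Named members are up to 12 called per direction in RNA and in efficiency, the 6 highest and 6 lowest in footprints, and 29 with known roles. A further rule, on footprints per codon, was not applied, since no coding lengths were used here.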

Additional observations from a re-analysis of the deposited data

Results flagged for a closer look

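Among 282 groups of 4 or 5 hearts of the named members (RNA, footprints and efficiency, each genotype), 21 had 1 heart far from the others by Dixon's criterion, which chance alone meets in about 1 in 20 groups. Values are normalized reads, or ratios for efficiency, with no explanation weighed. In KO hearts the outlying values were Mrpl23 footprints (14.1, heart 10) and efficiency (0.02, heart 10), Mrpl52 footprints (1047, heart 8), Mrps17 footprints (1888, heart 6) and Mrps12 RNA (262, heart 10).

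WT heart 2, which had the shallowest footprint library, gave 10 of the 21. Its footprints were high for Mrpl41 (1339), Mrpl54 (1532), Mrps18c (1104) and Mrps21 (2630) and low for Mrpl10 (980) and Mrpl45 (1995). Its efficiency was high for Mrpl41 (0.859) and Mrps24 (2.69) and low for Mrpl45 (2.86), and its RNA was low for Mrps7 (705). Without WT heart 2 no member was called in footprints either (limma).

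In the other WT hearts, RNA stood apart for Mrpl46 (1031, heart 1, high), Mrpl51 (2428, heart 3, low) and Mrps21 (1603, heart 4, high). Footprints of Mrpl49 were low in heart 3 (637). Efficiency was low for Mrps18a in heart 4 (3.01) and for Mrps25 in heart 3 (1.19). RNA of Mrpl46 and Mrps21 fell in KO hearts with or without these hearts (limma, adjusted p at most 8.50e-04 for Mrpl46 and 0.0195 for Mrps21 over all alternatives).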

How the results depend on the processing

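Counts of called members stayed within 1.5 times of the reported ones under all alternatives. RNA calls (48 reported) numbered 43 to 49 when each heart was left out and 46 to 53 otherwise. Efficiency calls (20 reported) numbered 15 to 18 and 19 to 23, with 23 (8 higher, 15 lower) when the heart was a replicate block, and footprint calls 0 throughout. Calls kept under every alternative were 24 of 30 that rose and 15 of 18 that fell in RNA, and 4 of 6 and 9 of 14 in efficiency. Of 2327 values of the 47 named members under alternatives, 2252 were counted as unchanged, 46 lost the call and 16 gained one. The other 13 changed sign, all of them small uncalled differences in RNA or efficiency. In RNA and efficiency, unchanged means the same direction and call. Uncalled footprint values counted as unchanged when they moved by less than the SD between hearts, whatever their sign, so sign changes in footprints were not counted. For Mrpl13 in RNA the sign changed with TMM factors (0.0032), quantile normalization (0.057) and without WT heart 2 (0.0028), WT heart 4 (0.026) or KO heart 7 (0.012), in a range of -0.035 to 0.026 over the hearts left out. For Mrpl21 in efficiency it changed with quantile normalization (-0.049), without WT heart 2 (-0.014), KO heart 7 (-0.021) or KO heart 8 (-0.0014), and in the authors' deposited table (-0.0057), in a range of -0.021 to 0.099. It also changed for Mrpl51 in RNA with quantile normalization (0.036) and, without WT heart 2, for Mrpl50 (range -0.11 to 0.027) and Mrps21 (range -0.24 to 0.040) in efficiency. Among the named members, called values moved by over 1.5 times for Mrps12 in RNA without KO heart 10 (-0.34) and for Mrps21 in RNA with quantile normalization (-0.15, against -0.25 as reported). Of the members not named by rule, Mrpl4 in RNA moved to -0.16 (call lost with quantile normalization, adjusted p = 0.083 by limma) and Mrpl30 in RNA ranged from 0.11 to 0.26. The causes were not tested. WT heart 2 had the shallowest footprint library, and without it 0 members were called in footprints as well.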
